A study of Homo sapiens with 21 samples.

Results

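Axon guidance genes encode the ligands and receptors by which growing nerve fibres read their surroundings. Of them, 69 protein-coding genes were described here in the open chromatin of human microglia-like cells: 20 semaphorins, 11 plexins and neuropilins, 14 EPH receptors, 8 ephrins, 7 slits and robos, and 9 netrins, DCC and UNC5 receptors. They were chosen by gene name alone, and a chromatin region counted as theirs when their gene span was the nearest within 100 kb. Of 166736 regions in all, 1222 belonged to 67 of these genes, while EPHA10 and EFNA1 had no region of their own.

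The assay was ATAC-seq, where a transposase inserts sequencing adapters into open DNA, and the cells were derived from the human embryonic stem cell line H9 (WA09), a widely used line. The 6 edited lines were TREM2-R47H and TREM2-KO (a lipid-sensing receptor of microglia), SORL1-A528T and SORL1-KO (an endosomal sorting receptor; the knockout is the R744X change in the labels' protocol), CD33 SNP (an inhibitory receptor for sialic acids) and INPP5D SNP (an inositol phosphatase), against unedited WT. Each line gave 3 libraries, 21 in all. According to the labels' protocols every edit was homozygous and made with CRISPR/Cas9 in clones isolated by sorting. H9 was itself heterozygous at the INPP5D variant, so WT carries 1 copy of the A allele that INPP5D SNP carries on both chromosomes. Each genotype is 1 line, so a difference between genotypes and a difference between clones cannot be told apart. CD43+ haematopoietic progenitors of all lines were differentiated for 28 days into microglia-like cells in IL-34, TGF-beta and M-CSF, with CD200 and CX3CL1 in the final 3 days, and 80000 viable cells were sorted. The libraries titled SORL1-A528T carry a genotype label that names TREM2-KO. Here the title decided the group, so SORL1-A528T stands throughout for libraries with that title. The labels do not state whether the 3 replicates of a line were differentiated separately, and p-values reflect only how much these libraries vary, which may be technical.

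Semaphorins are secreted or membrane-bound cues that act through plexins, with neuropilins as co-receptors for the secreted class 3 members. Ephrins are membrane-bound ligands of the EPH receptor tyrosine kinases, slits are secreted ligands of the robo receptors, and netrins are secreted ligands of DCC and UNC5. The same systems work outside the nervous system, in blood vessel growth and in the migration and activation of immune cells, and receptors such as PLXNC1, PLXND1 and NRP1 are known from myeloid cells.

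The peak lists held 39736 to 102891 peaks each and gave positions without heights. Coordinates below are those of the lists after merging, read as GRCh38, which the files do not name and the listed starts fitted. Depth followed the replicate number, with 56.5 to 67.4 M tags in replicate 1, 12.8 to 17.5 M in replicate 2 and 32.6 to 52.9 M in replicate 3. Replicate 2 libraries called 22.8% to 40.7% of the axon guidance regions, against 36.2% to 58.5% in the other libraries. Start sites of 8 of the 13 microglia marker genes with a listed start, among them CX3CR1, P2RY12 and C1QA, were called in all 21 libraries. The start of CD14 was called in 9. Of the other cell types, the starts of NANOG, DNMT3B, SOX1, NEUROD1, DCX, RBFOX3 and GATA1 were called in no library, while those of PAX6, NEUROG2, KIT, TAL1 and PDGFRB were called in all 21 and that of SOX2 in 17. In bulk cells, fewer cells of a type and less open chromatin per cell cannot be told apart.

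Most regions of the axon guidance genes were found in some libraries and not in others. Of the 1222 regions, 171 (13.99%) recurred in every library and 325 (26.6%) were seen in 1 library, against 15.4% and 25.8% of all regions. All regions include those too far from any gene to be assigned. Among regions assigned to a gene, as the members are, the shares were 17.1% and 21.8%. The median was 6 libraries for member regions and 9 for assigned regions, so members recurred less often. Inside a gene span of the family lay 70.0% of them. The 2 large robo receptor genes, ROBO1 with 85 regions and ROBO2 with 113, held 16.2% of the total. Of the 69 genes, 39 had at least 1 region in all 21 libraries.

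The families differed in how constant their regions were. Ephrins had the highest share called in every library, 17 of 58 (29.3%), ahead of the plexins and neuropilins with 38 of 195 (19.5%) and the slits and robos with 53 of 301 (17.6%). Semaphorins followed with 39 of 354 (11.0%), EPH receptors with 16 of 180 (8.89%), and netrins, DCC and UNC5 with 8 of 134 (5.97%). These shares are descriptions, since regions of 1 gene are not independent. The gene with most regions in each family was ROBO2, SEMA3A (51 regions, a secreted repellent cue), PLXNA2 (40, a plexin for class 3 and class 6 semaphorins), UNC5D (37, a netrin receptor), EPHA6 (35) and EFNA5 (27). Regions in every library numbered 20 at ROBO2, 5 at SEMA3A, 11 at PLXNA2, 5 at UNC5D, 3 at EPHA6 and 8 at EFNA5. PLXNC1, the receptor of the semaphorin SEMA7A, had 12 among its 37 regions.

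Start sites gave the clearest split among the members. A start counted as called when a region lay within 1 kb of any listed start. For 10 genes without one in the table used, either end of the gene served instead. A call at such an end may lie at the 3′ end and not at the start. NTN3, for example, counted in 11 libraries through a region assigned to TBC1D24. With these ends counted, starts of 24 members were called in all 21 libraries, of 19 in 15 to 20, of 12 in 1 to 14 and of 14 in none. Of the 59 members with a listed start 22 were called in every library (37.3%), against 46.7% of 15811 protein-coding genes, and 13 in none (22.03%), against 24.4%.

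**Figure D1:**
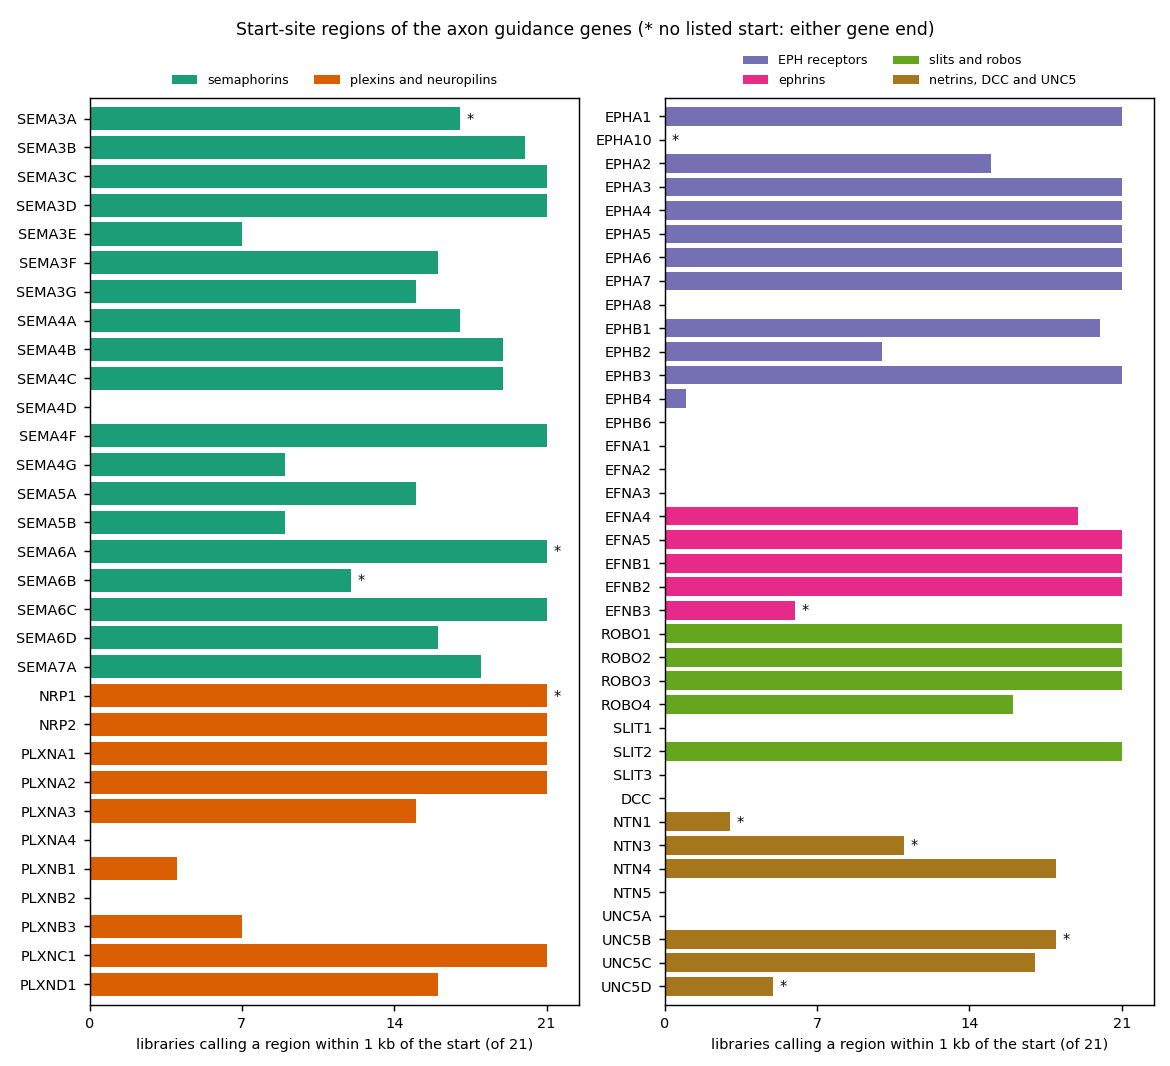
Number of libraries, of 21, that called a region within 1 kb of the start of each axon guidance gene, coloured by family. An asterisk marks the 10 genes without a listed start, for which either gene end was used, so a call may lie at the 3′ end. Starts of 24 genes reach 21 libraries and those of 14 genes have none.

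Among the ligands, starts were called in all 21 libraries for SEMA3C, SEMA3D, SEMA4F, SEMA6A and SEMA6C, for EFNA5, EFNB1 and EFNB2, and for SLIT2. Among the receptors this held for NRP1, NRP2, PLXNA1, PLXNA2 and PLXNC1, for EPHA1, EPHA3, EPHA4, EPHA5, EPHA6, EPHA7 and EPHB3, and for ROBO1, ROBO2 and ROBO3. It held for 7 of 14 EPH receptors and for 0 of 9 netrins, DCC and UNC5 receptors. The starts of SEMA4D, PLXNA4, PLXNB2, EPHA8, EPHA10, EPHB6, EFNA1, EFNA2, EFNA3, SLIT1, SLIT3, NTN5, UNC5A and DCC, the main attractive netrin receptor, were called in none. For SEMA4D, PLXNA4, PLXNB2, EPHB6 and EFNA2 the only listed start lies inside the gene span, over 1 kb from its outer end. Calls at the outer 5′ ends of these genes were therefore not counted as start calls. Several genes with an uncalled listed start had many regions elsewhere: SLIT3 had 49 regions with 11 in all 21 libraries, PLXNA4 had 38 with 2, DCC had 34 with 3, and SEMA4D, a membrane-bound semaphorin of immune cells, had 31 with 5.

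How early a region stood in a list gave a rough rank of its strength, since the top 10% of each list recurred in a mean of 19.9 to 19.99 other libraries and the bottom 10% in 3.70 to 13.4. On a scale where 100 is the first peak of a list, the starts called everywhere had median positions of 64.2 (EPHA3) to 99.3 (ROBO1). ROBO1 never stood below 98.3 and EFNB2, a ligand of EPHB receptors known from vessel growth, never below 96.0. EPHA7 (median 96.2), EPHB3 (96.6) and EPHA4 (97.9) were close behind. SLIT2 had a median of 85.2 but a lowest position of 3.96.

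The bases before the start are shown for 5 genes, the 250 just upstream in each, to set called beside uncalled starts by their count of CG dinucleotides, which CpG islands are rich in. They are RefSeq sequence of GRCh38.p14, read 5′ to 3′ on the strand of the gene, with every CG in capitals. EPHA4 and EFNB2 were called in all 21 libraries, UNC5C in 17, and PLXNA4 and EPHA8 in none. The PLXNA4 stretch lies before a listed start inside the gene span, not at the outer end of the gene.
EPHA4, chr2:221574203-221574452, minus strand: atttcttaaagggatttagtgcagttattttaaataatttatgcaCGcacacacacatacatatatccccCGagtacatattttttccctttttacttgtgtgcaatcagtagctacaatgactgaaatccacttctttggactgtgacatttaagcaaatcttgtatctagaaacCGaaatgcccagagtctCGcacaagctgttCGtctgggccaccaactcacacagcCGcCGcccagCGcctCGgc
EFNB2, chr13:106535663-106535912, minus strand: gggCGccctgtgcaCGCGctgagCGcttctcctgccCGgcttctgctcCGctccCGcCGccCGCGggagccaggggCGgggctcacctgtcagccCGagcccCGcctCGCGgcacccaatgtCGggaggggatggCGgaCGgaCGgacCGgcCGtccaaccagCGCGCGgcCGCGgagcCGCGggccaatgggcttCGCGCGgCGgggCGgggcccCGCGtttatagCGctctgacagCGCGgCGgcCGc
UNC5C, chr4:95548974-95549223, minus strand: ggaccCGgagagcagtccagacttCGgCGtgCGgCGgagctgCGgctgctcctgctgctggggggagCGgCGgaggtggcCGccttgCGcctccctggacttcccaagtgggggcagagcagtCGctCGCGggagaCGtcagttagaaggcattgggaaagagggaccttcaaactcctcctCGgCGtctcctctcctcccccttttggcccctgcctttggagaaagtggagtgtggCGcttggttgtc
PLXNA4, chr7:132576471-132576720, minus strand: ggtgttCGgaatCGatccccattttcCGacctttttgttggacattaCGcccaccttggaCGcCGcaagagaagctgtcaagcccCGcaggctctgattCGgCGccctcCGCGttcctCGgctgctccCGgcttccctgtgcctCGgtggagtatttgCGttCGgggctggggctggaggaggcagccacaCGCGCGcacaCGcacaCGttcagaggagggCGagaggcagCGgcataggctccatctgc
EPHA8, chr1:22563239-22563488, plus strand: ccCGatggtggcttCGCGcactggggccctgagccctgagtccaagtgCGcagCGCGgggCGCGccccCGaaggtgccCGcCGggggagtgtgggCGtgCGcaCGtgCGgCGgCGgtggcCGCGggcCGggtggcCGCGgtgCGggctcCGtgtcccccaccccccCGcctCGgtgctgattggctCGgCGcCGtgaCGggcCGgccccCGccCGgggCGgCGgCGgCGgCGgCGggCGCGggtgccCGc

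The EPHA4 stretch holds 9 CG and was called everywhere, whereas that of EPHA8, with 42, was called nowhere. EFNB2 holds 40, UNC5C 17 and PLXNA4 23. Over the members with a listed start, the median was 20 CG in the 22 called in every library and 23 in the 13 called in none, which ranged from 3 (EPHB6) to 42 (EPHA8). Over all protein-coding genes the medians were 21 and 4. This is a description of 13 promoters, some of them at starts inside the gene span, and none of it was tested.

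A further pair of short words was searched in the same 250 bases on both strands, neither of which contains the other. They were GAGGAAGT, a word of the kind bound by the myeloid factor PU.1, and TGANTCA. The latter is a looser form of the AP-1 words TGACTCA and TGAGTCA, with any base in the middle. GAGGAAGT was found in 3 of 59 members (5.08%), against 2.19% of all promoters, namely PLXNC1, PLXNA2 and SEMA4B. TGANTCA was found in 1 member (1.69%), against 4.93%. PLXNC1 held both, before its listed start inside the gene. Its TGANTCA match is TGATTCA, which is neither of the 2 AP-1 words. The stretch is shown with both matches in capitals.
PLXNC1, chr12:94262369-94262618, plus strand: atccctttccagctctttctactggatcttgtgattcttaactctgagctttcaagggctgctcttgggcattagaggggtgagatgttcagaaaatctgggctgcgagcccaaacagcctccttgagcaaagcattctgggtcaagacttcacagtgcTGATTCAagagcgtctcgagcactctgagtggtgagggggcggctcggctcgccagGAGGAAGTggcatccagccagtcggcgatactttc

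Both listed starts of PLXNC1 were called in all 21 libraries, the upstream one (chr12:94147484-94151292) at a median position of 94.4 and the inner one (chr12:94262123-94264288) at 91.7. A word match does not show binding.

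Fewest starts were called in the shallow replicate 2 libraries. Replicate 2 libraries called 26 to 40 member starts, against 46 to 53 in replicate 1 and 43 to 50 in replicate 3. The start of EPHA2, a receptor of ephrin-A ligands, was called in 7 of 7 libraries of replicate 1, in 1 of replicate 2 and in 7 of replicate 3. That of EPHB2 was called in 7, 0 and 3 libraries of replicates 1, 2 and 3. By line, the number of starts called averaged 46.7 ± 6.66 in TREM2-R47H, 45 ± 4.36 in TREM2-KO, 38.7 ± 11.2 in SORL1-A528T, 44.7 ± 7.02 in SORL1-KO, 45.3 ± 8.62 in CD33 SNP, 41 ± 7.81 in INPP5D SNP and 44 ± 9.85 in WT (SD, n = 3 each). All 6 edited lines lay within 1 SD of WT. Positions and calls both come from lists whose length differs with depth.

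UNC5C, a netrin receptor that mediates repulsion, departed from that pattern. Its start region (chr4:95547774-95550470) was called in 0 of 3 SORL1-A528T libraries, in 3 of 3 of each of the other 5 edited lines and in 2 of 3 WT libraries. Where called, it stood at positions of 7.18 to 77.8 with a median of 49.1. This gene was picked once its values were known. Other member start regions also had 0 of 3 calls in SORL1-A528T. Among them were that of SEMA5A (chr5:9544251-9545269), called in 15 libraries, and 1 of SEMA6D (chr15:47716937-47719195), called in 14. A start region absent in 3 of 3 SORL1-A528T libraries but present in at least 17 of the 18 others was found for 10 of 15811 protein-coding genes (0.0632%), against 1 or fewer in every other line. Of all regions, 135 followed that pattern in SORL1-A528T and 0 to 23 in the other lines. Within each replicate number SORL1-A528T had the fewest peaks, and the part of list length in the missing UNC5C start was not tested.

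The share of possible calls was lowest in SORL1-A528T, the line with the shortest lists, for all 6 families, for example 43.4% ± 17.9 at the plexins and neuropilins and 25.7% ± 6.79 at the EPH receptors, where WT had 54.4% ± 16.9 and 36.3% ± 17.96 (SD, n = 3 each). To set lines side by side, the mean call of all equally recurrent regions (those found in as many libraries) was taken library by library and subtracted from each call. The depth-adjusted call is 0 on average, positive where a library calls a region more often than its depth predicts, and was averaged per gene. Over all 1222 regions it averaged -0.00210 ± 0.0138 in TREM2-R47H, 0.00948 ± 0.0253 in TREM2-KO, -0.00328 ± 0.0165 in SORL1-A528T, -0.00248 ± 0.00870 in SORL1-KO, 0.00423 ± 0.0111 in CD33 SNP, -0.00100 ± 0.0202 in INPP5D SNP and -0.00484 ± 0.0125 in WT (SD, n = 3 each). Each edited line differed from WT by less than the larger SD of that pair.

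**Figure D2:**
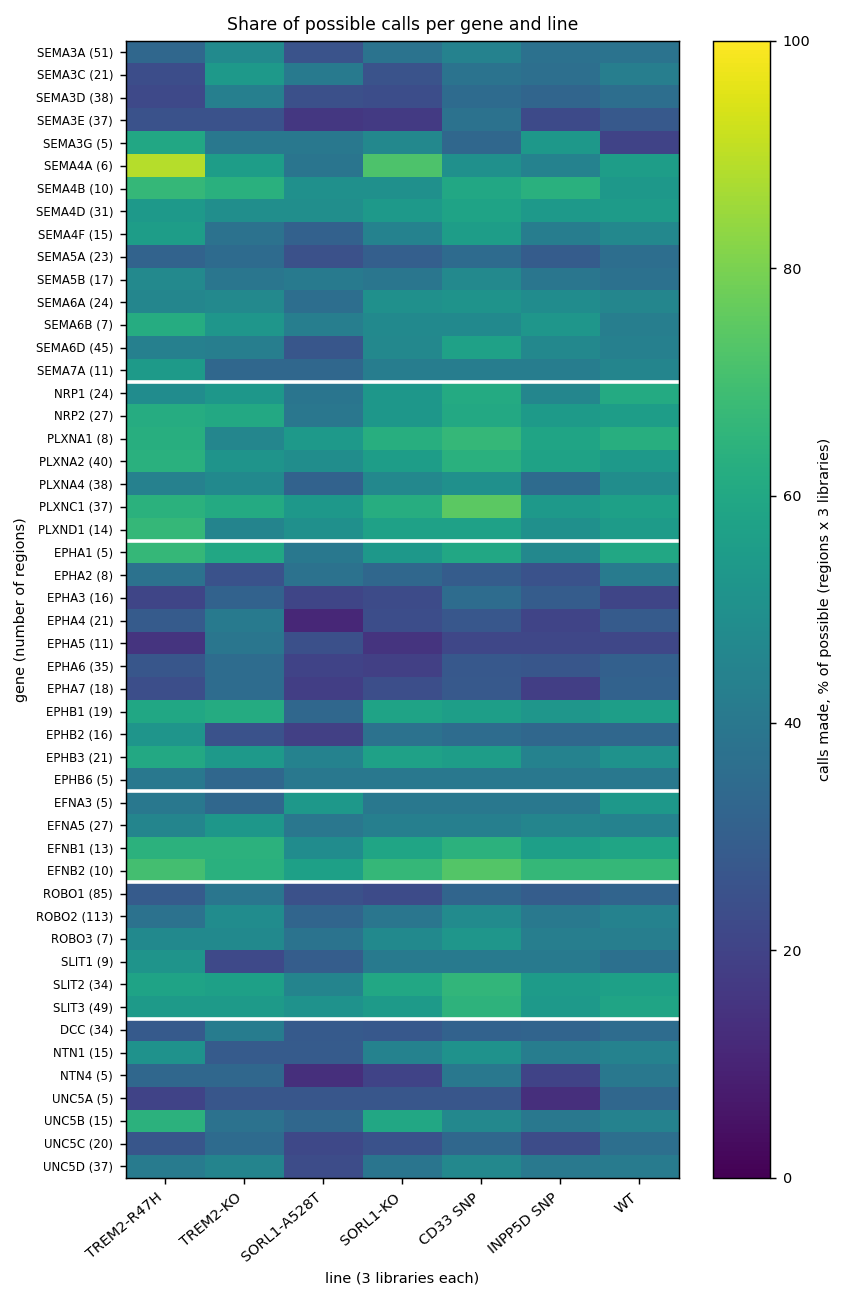
Share of possible calls (regions times 3 libraries, in percent) for each of the 50 axon guidance genes with at least 5 regions, by line, with white bars between families. SORL1-A528T, whose lists were shortest, is the darkest column for most genes, and SEMA4A in TREM2-R47H is the brightest cell at 88.9%.

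Per gene, 50 members with at least 5 regions were tested together with all other such genes, 8435 in total, by limma over all 21 libraries. The adjusted p threshold of 0.05 was passed by 0 members in each of the 8 comparisons and in the test for any difference among the lines. The background was as low: 0% of all genes passed in 7 comparisons and in the test over lines, and 0.0119% (1 gene, not a member) in INPP5D SNP against WT. These fits took no account of the replicate number. With it as a block, SEMA3C passed in TREM2-R47H against TREM2-KO, as given below. In the test over lines, 1 member had an unadjusted p below 0.05, against 6.14% of all genes. It was SEMA4A (adjusted p = 0.805 by limma).

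**Figure D3:**
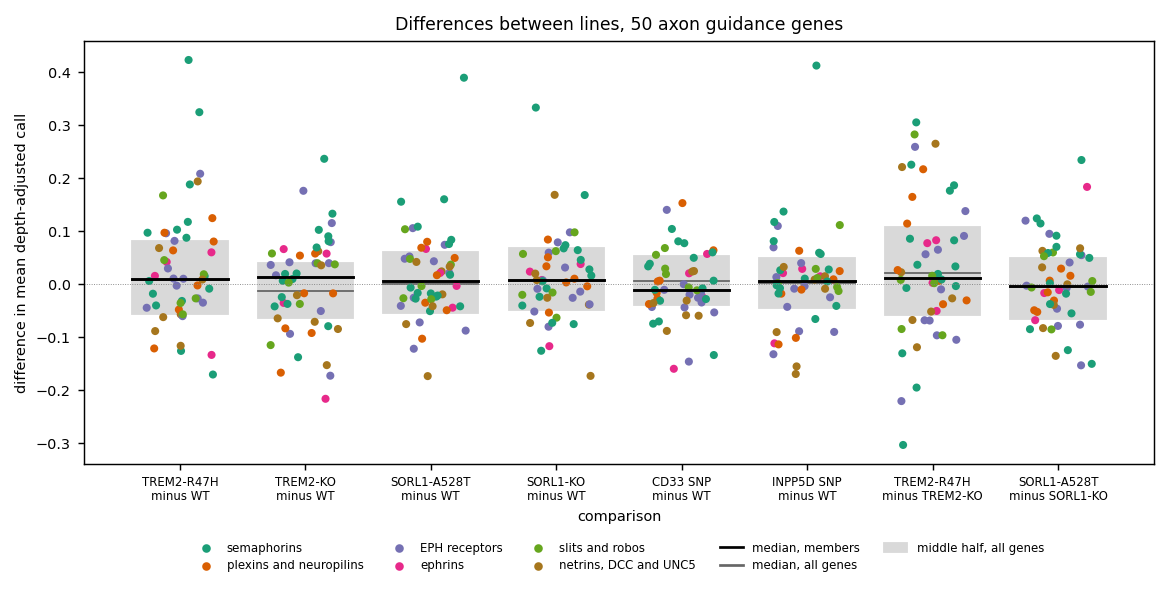
Difference in mean depth-adjusted call, first line minus second, for 50 axon guidance genes in 8 comparisons; each point is a gene coloured by family, the black line is their median, the grey line the median of all 8435 genes and the grey box the middle 50% of all genes. Member medians lie between -0.0107 and 0.0132; SEMA3G is the highest point in 5 of the 6 comparisons with WT, which share the WT libraries.

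TREM2-R47H against WT sets a missense allele linked to dementia risk beside the unedited line. The members showed no common direction: 28 of 50 were higher (54.4% of all genes), with a median difference of 0.0104 against 0.00752 over all genes. At an unadjusted p below 0.05, 2 members were higher (all genes 4.98%) and 0 lower (3.54%). Groups that did not overlap were seen for 6 members that were higher (10.3% of all genes) and 1 that was lower (6.22%).

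Highest was SEMA3G, a secreted class 3 semaphorin, at 0.445, -0.155 and 0.175 in TREM2-R47H replicates 1 to 3, against -0.465, -0.0848 and -0.254 in WT. The groups overlap at TREM2-R47H replicate 2, and in replicate 2 none of the 5 SEMA3G regions was called in either line. The difference was 0.423 (SE 0.161; adjusted p = 0.517 by limma). SEMA4A, a membrane semaphorin that acts on T cells, was called at 6, 4 and 6 of 6 regions in TREM2-R47H, against 5, 1 and 4 in WT. Its adjusted values were 0.277, 0.362 and 0.194 in TREM2-R47H and 0.00580, -0.00161 and -0.146 in WT, without overlap, and the difference was 0.325 (SE 0.132; adjusted p = 0.517 by limma). Lowest was SEMA3C, a secreted cue that acts through neuropilins, at -0.309, -0.0222 and -0.123 in TREM2-R47H, against -0.103, 0.100 and 0.0594 in WT. Each TREM2-R47H library lay below the WT library of its number, but the groups overlap. The difference was -0.171 (SE 0.104; adjusted p = 0.673 by limma), and -0.0902 without TREM2-R47H replicate 1.

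Single regions were then read as all-or-none, meaning 3 calls in 3 libraries of 1 line and 0 calls in the other line. Single regions were not tested. TREM2-R47H gained 2 of the 1222 regions against WT (0.127% of all regions) and lost 4 (0.303%). The 2 gained lay 1511 bp from EPHB2 (chr1:22708072-22709327) and inside ROBO1 (chr3:79009821-79010408). The 4 lost lay inside SEMA3C (chr7:80842124-80842955 and chr7:80858332-80859118), 10910 bp from SEMA3D (chr7:85261153-85261932) and inside PLXNA4 (chr7:132489625-132490380). In the WT lists the PLXNA4 region stood highest of these, at a median position of 62.8.

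TREM2-KO against WT asks what loss of the receptor does. Members with a higher value numbered 28 of 50 (56%), against 42.8% of all genes, and the median was 0.0132 against -0.0125 over all genes. At an unadjusted p under 0.05 there were 0 members in either direction (all genes 1.46% higher and 2.09% lower). SEMA3G was again highest, at 0.266, -0.0677 and -0.293 in TREM2-KO against the same WT values, a difference of 0.237 (SE 0.161; adjusted p = 0.999 by limma) that was 0.0867 without TREM2-KO replicate 1, 0.135 without WT replicate 1 and 0.379 without TREM2-KO replicate 3. Lowest was EFNA3, a membrane-anchored ligand of EPHA receptors, at -0.00664, -0.197 and -0.158 in TREM2-KO, against 0.0813, 0.119 and 0.0878 in WT. The groups did not overlap (EFNA3 was the 1 lower member; 5.32% of all genes), and the difference was -0.216 (SE 0.117; adjusted p = 0.999 by limma) over only 5 regions. Without overlap and higher were 2 members (2.10% of all genes). All-or-none, TREM2-KO gained 1 region, inside ROBO2 (chr3:77276163-77276962; 0.048% of all regions gained), and lost 0 (0.0576%).

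EPHA5, a receptor of ephrin-A ligands known from developing neurons, was called most often in TREM2-KO, at 39.4% of possible calls, against 15.2% to 24.2% in the other lines. Its calls were 1, 5 and 7 of 11 regions in TREM2-KO replicates 1 to 3 and 2, 3 and 2 in WT. The adjusted values were -0.0804, 0.238 and 0.263 in TREM2-KO, against -0.143, 0.159 and -0.124 in WT. These groups overlap, and the difference was 0.176 (SE 0.0958; adjusted p = 0.999 by limma). EPHA4, EPHA6 and EPHA7 were also called most often in TREM2-KO, at 41.3%, 35.2% and 35.2% of possible calls, against 28.6%, 30.5% and 31.5% in WT. The other EPHA receptors with regions did not share this: EPHA1 was at 60% in both TREM2-KO and WT, EPHA2 at 25% in TREM2-KO against 41.7% in WT, EPHA8 (2 regions) at 16.7% in TREM2-KO against 33.3% in WT, and EPHA3 was highest in CD33 SNP. EPHA5 and these EPHA receptors were picked once their values were known. The 154 regions of 10 neural marker genes had their highest mean depth-adjusted call in the same line, 0.0428 ± 0.0383 in TREM2-KO against -0.00480 ± 0.0268 in WT, the other lines lying between -0.0210 and 0.00463. Their share of possible calls was 37.0% in TREM2-KO and 30.7% in WT. Starts of SOX1, NEUROD1, DCX and RBFOX3, 4 of the 9 with a listed start, were called in no library. Those of PAX6 and NEUROG2 were called in all 21 libraries, that of SYT1 in 15, of MAP2 in 4 and of TUBB3 in 3. The part of the neural marker regions in the EPHA values was not tested.

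SORL1-A528T against WT gave 25 members a higher value (49.8% of all genes) and 25 a lower one. The median was 0.00673 against -0.000267 over all genes. At an unadjusted p below 0.05, 2 members were higher (1.83% of all genes) and 1 was lower (2.28%), and without overlap 2 were higher (4.74%) and 2 lower (6.59%). SEMA3G stood at 0.280, -0.0698 and 0.155 in SORL1-A528T, all above the same WT values (difference 0.390, SE 0.161; adjusted p = 0.976 by limma). In replicate 2 neither line called any of the 5 SEMA3G regions. There the values of -0.0698 and -0.0848 (WT) differ only through the subtracted mean, and the lack of overlap rests on that pair. NTN4, a netrin of basement membranes, stood at -0.0500, -0.0774 and -0.0958 in SORL1-A528T, against -0.000343, 0.0839 and 0.214 in WT. The groups did not overlap, with 1, 0 and 1 of 5 regions called in SORL1-A528T and 2, 1 and 3 in WT (difference -0.174, SE 0.0819; adjusted p = 0.976 by limma).

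All-or-none, SORL1-A528T gained 0 member regions (0.0114% of all regions) and lost 5 (0.487%). The 5 were 2 inside SEMA6D (chr15:47401245-47401961 and chr15:47523143-47524201), a membrane semaphorin that signals through plexin-A receptors, and 1 each inside SEMA6A and SEMA3A and 83443 bp from UNC5D. The higher-placed SEMA6D region was called in 3 of 3 TREM2-KO, SORL1-KO and WT libraries and in 2 of 3 TREM2-R47H, CD33 SNP and INPP5D SNP libraries. Over all regions this line, with its shorter lists, likewise had 812 losses and 19 gains.

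SORL1-KO against WT had 28 members higher (52.5% of all genes) and a median of 0.00733 against 0.00557 over all genes. At an unadjusted p below 0.05, 0 were higher (2.68% of all genes) and 1 was lower (2%). Without overlap 5 were higher (8.87%) and 3 lower (6.73%). SEMA3G stood at 0.0943, -0.182 and 0.284 in SORL1-KO, overlapping the same WT values (difference 0.333, SE 0.161; adjusted p = 0.932 by limma). NTN4 stood at -0.123, -0.187 and 0.0881 in SORL1-KO, again with overlap (difference -0.173, SE 0.0819; adjusted p = 0.932 by limma). SORL1-KO gained 1 region, inside UNC5B (chr10:71240093-71241010; 0.0624% of all regions), and lost 3 (0.233%). The lost regions were the SEMA3C region chr7:80858332-80859118 and the SEMA3D region chr7:85261153-85261932, both also lost in TREM2-R47H, and 1 inside ROBO1 (chr3:79517654-79518375). Both comparisons use the same WT libraries. In the other lines the SEMA3C region was called in 3 of 3 SORL1-A528T libraries and 2 of 3 in TREM2-KO, CD33 SNP and INPP5D SNP.

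In CD33 SNP against WT 21 of 50 members (42%) were higher, against 53.9% of all genes. The median was -0.0107 against 0.00672 over all genes. At an unadjusted p below 0.05, 1 was higher (1.72% of all genes) and 0 lower (0.759%), and without overlap 3 were higher (4.21%) and 1 lower (2.83%). The highest was PLXNC1, at 0.204, -0.00424 and 0.0664 in CD33 SNP, against -0.106, -0.0445 and -0.0418 in WT. It was called at 34, 19 and 30 of 37 regions in CD33 SNP and at 23, 15 and 25 in WT, without overlap of the adjusted values (difference 0.153, SE 0.0549; adjusted p = 1.000 by limma). EFNA3 was lowest, at 0.100, -0.165 and -0.127 in CD33 SNP, against the WT values given above, with overlap (difference -0.160, SE 0.117; adjusted p = 1.000 by limma). CD33 SNP gained 1 region, inside SEMA3A (chr7:84218517-84219288; 0.0954% of all regions), and lost 0 (0.0414%).

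In INPP5D SNP against WT 27 members were higher (51.5% of all genes), with a median of 0.00678 against 0.00242 over all genes. At an unadjusted p below 0.05, 1 was higher (1.51% of all genes) and 1 lower (1.36%), and without overlap 3 were higher (4.20%) and 3 lower (4.18%). The lower one was PLXNA4, a semaphorin receptor (difference -0.101, SE 0.0486; adjusted p = 0.999 by limma). SEMA3G stood at 0.330, -0.114 and 0.218 in INPP5D SNP, overlapping the same WT values (difference 0.413, SE 0.161; adjusted p = 0.999 by limma). NTN4 stood at -0.108, -0.145 and 0.0415 in INPP5D SNP, against -0.000343, 0.0839 and 0.214 in WT, with overlap (difference -0.170, SE 0.0819; adjusted p = 0.999 by limma). INPP5D SNP gained 1 region, inside SEMA6D (chr15:47384222-47384849; 0.0276% of all regions), and lost 0 (0.142%). That region was called in 3 of 3 INPP5D SNP and 2 of 3 CD33 SNP libraries and in 0 of 3 libraries of every other line, WT included.

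**Figure D4:**
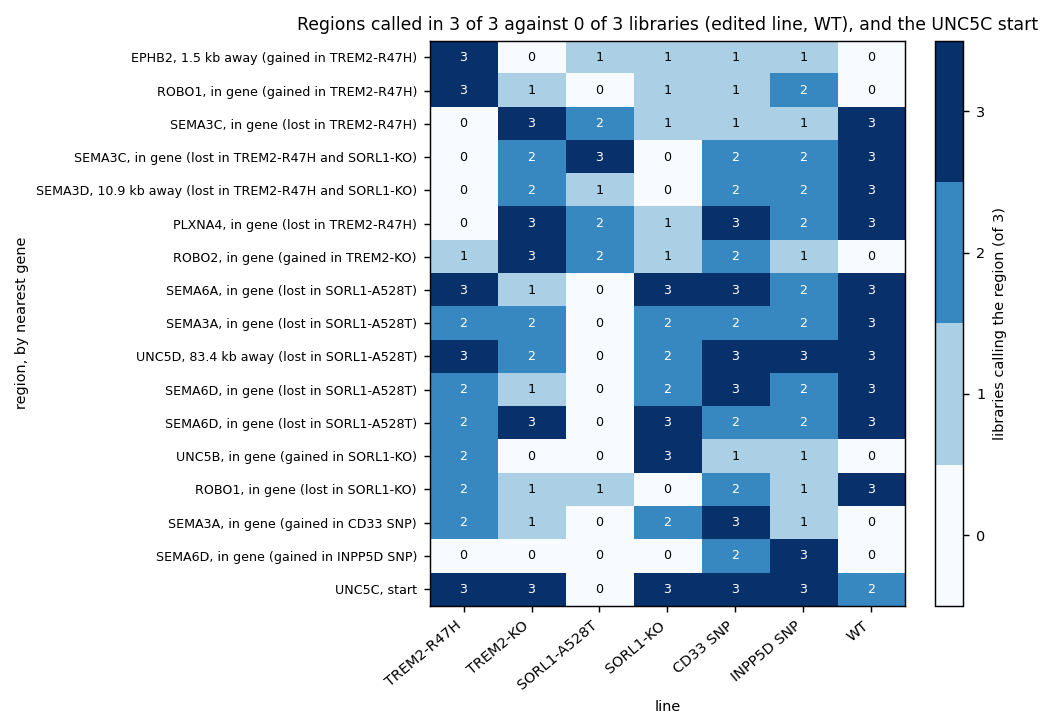
Number of libraries, of 3, that called each of the 16 axon guidance regions gained or lost all-or-none between an edited line and WT, and the UNC5C start, by line. None of the 16 is called in 3 libraries of 1 line alone and in 0 of all the others, and the UNC5C start is at 0 in SORL1-A528T alone.

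The 18 all-or-none entries were 16 distinct regions at 11 genes, 13 of the 16 lying inside a gene span, and 588 to 1256 bp wide. Their median positions in the lists that held them ran from 8.21 to 62.8. With all lists limited to the length of the shortest, 39736 peaks, 0 of the 18 remained all-or-none. The cut drops the lower-placed peaks of longer lists, such as WT replicate 1 with 96344, and most of these regions stood low. It therefore cannot show whether the 18 would hold at equal depth. No member region was called in all 3 libraries of 1 line and in none of the 18 others, or the reverse, while over all regions 0 to 12 and 0 to 42 per line were (up to 0.0072% and 0.0252%).

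TREM2-R47H against TREM2-KO compares 2 alleles of the same gene and gave the most members past an unadjusted p of 0.05, 7 higher (9.13% of all genes) and 4 lower (4.72%). Higher were NTN1, UNC5B, SLIT1, SEMA4A, SEMA4F, SEMA7A and PLXND1, and lower were SEMA3A, SEMA3C, SEMA3D and EPHA5. The median was 0.0122 against 0.0215 over all genes. The groups did not overlap for 4 members that were higher (8.80%) and 1 that was lower (4.81%). The smallest adjusted p was that of NTN1 and SEMA3C, and those 2, with SEMA3D and UNC5B, were chosen for values per library after their p had been seen.

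SEMA3C (chr7:80742538-80922389) was called at 3, 4 and 8 of its 21 regions in TREM2-R47H replicates 1 to 3, against 4, 15 and 15 in TREM2-KO. As 3 of the 21 regions were called in every library, TREM2-R47H replicate 1 held no other. Adjusted values were -0.309, -0.0222 and -0.123 in TREM2-R47H and -0.114, 0.410 and 0.160 in TREM2-KO, so the groups overlap through TREM2-KO replicate 1. The difference was -0.304 (SE 0.104; adjusted p = 0.249 by limma). Same-numbered libraries of these 2 lines deviated together (correlations of 0.188 to 0.537). With the replicate number as a block the adjusted p of SEMA3C was 0.0476 (limma), 1 member past the threshold beside 58 genes (0.688% of all). Without TREM2-KO replicate 1, SEMA3C was at -0.440 (adjusted p = 0.0477 by limma) and NTN1 at 0.310 (adjusted p = 0.04997 by limma, just under the threshold), beside 86 genes (1.03% of those tested). Without TREM2-KO replicate 2 the SEMA3C difference was -0.187.

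SEMA3D (chr7:84995553-85250243), a secreted semaphorin of vessel patterning, lies on chromosome 7, as do SEMA3C, SEMA3E and SEMA3A. It was called at 8, 6 and 11 of 38 regions in TREM2-R47H, against 8, 17 and 24 in TREM2-KO. The adjusted values were -0.167, -0.0199 and -0.118 in TREM2-R47H and -0.0427, 0.177 and 0.146 in TREM2-KO, overlapping through TREM2-KO replicate 1 (difference -0.195, SE 0.0688; adjusted p = 0.255 by limma). SEMA3A had -0.131 (SE 0.0603; adjusted p = 0.345 by limma) without overlap. SEMA3E did not share the direction, with a difference of 0.0192.

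NTN1, the founding secreted netrin, was called at 10, 5 and 8 of 15 regions in TREM2-R47H, against 6, 1 and 6 in TREM2-KO. Its adjusted values were 0.154, 0.0921 and -0.0229 in TREM2-R47H and 0.0288, -0.260 and -0.209 in TREM2-KO, overlapping by 1 library on each side (difference 0.221, SE 0.0758; adjusted p = 0.249 by limma). UNC5B, its repulsive receptor in vessels and macrophages, was called at 12, 7 and 10 of 15 regions in TREM2-R47H, against 7, 3 and 7 in TREM2-KO. The adjusted values were 0.225, 0.199 and 0.0385 in TREM2-R47H and 0.0384, -0.152 and -0.220 in TREM2-KO, nearly touching at the nearest pair (difference 0.265, SE 0.0962; adjusted p = 0.261 by limma). SORL1-KO values of UNC5B were 0.178, 0.169 and 0.0382, and WT values -0.0449, -0.0373 and -0.0378. Over the 111 regions of the microglia markers, the mean depth-adjusted call was 0.0427 ± 0.0919 in TREM2-R47H and -0.0557 ± 0.0539 in TREM2-KO (SD, n = 3 each). The other lists apart from the neural one lay the same way round, the mesenchymal and endothelial markers at 0.0363 in TREM2-R47H and -0.0299 in TREM2-KO, the pluripotent ones at 0.0306 and -0.0404, the haematopoietic ones at 0.0259 and -0.0264 and the effectors at 0.0151 and -0.0285, in the same order of lines. Their part in these member values was not tested.

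**Figure D5:**
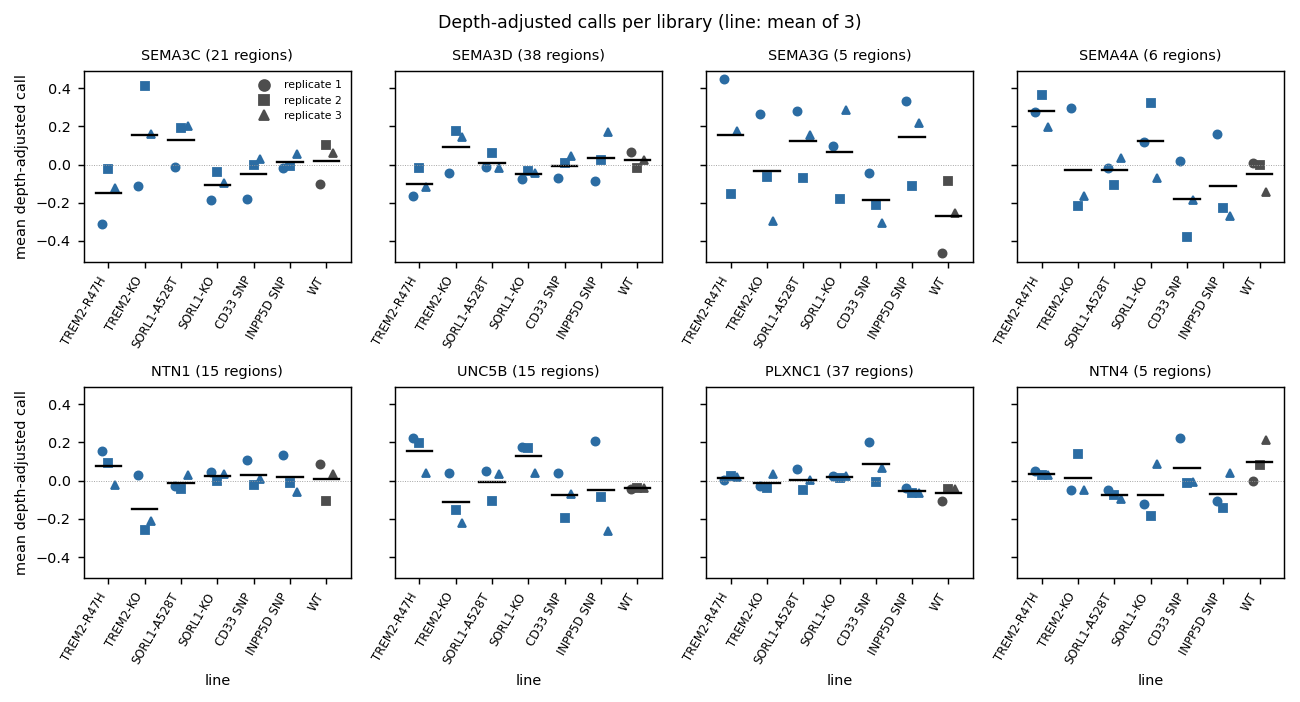
Mean depth-adjusted call per library for 8 axon guidance genes, by line; symbols give the replicate number, black bars the mean of 3 libraries, and WT is at the right. SEMA3C and SEMA3D lie low in TREM2-R47H and high in TREM2-KO replicates 2 and 3, and NTN1 and UNC5B lie low in those same 2 libraries.

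The highest difference in that comparison was at SEMA4A, at 0.277, 0.362 and 0.194 in TREM2-R47H, against 0.295, -0.215 and -0.164 in TREM2-KO. The groups overlap through TREM2-KO replicate 1 (difference 0.305, SE 0.132; adjusted p = 0.320 by limma). It was 0.476 without TREM2-KO replicate 1 and 0.178 without the replicate 2 libraries.

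SORL1-A528T against SORL1-KO had 23 members higher (46.9% of all genes), with a median of -0.00378 against -0.00580 over all genes. At an unadjusted p below 0.05, 1 was higher (2.39% of all genes) and 2 were lower (3.64%). Without overlap 4 were higher (5.56%) and 2 lower (7.55%). SEMA3C was the highest, at -0.0123, 0.193 and 0.202 in SORL1-A528T, against -0.186, -0.0373 and -0.0971 in SORL1-KO. The groups did not overlap, and the difference was 0.234 (SE 0.104; adjusted p = 0.783 by limma). EPHB1, an EPH receptor of retinal and other axons, was lowest, at -0.142, 0.00424 and -0.196 in SORL1-A528T, against -0.0139, 0.150 and -0.0107 in SORL1-KO, with overlap (difference -0.153, SE 0.0695; adjusted p = 0.803 by limma).

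Of 64 listed genes that act with these families (small GTPases and their regulators, kinases, cytoskeletal effectors and co-receptors), 47 could be tested. In each of the 8 comparisons 0 of them passed the threshold (limma). In TREM2-R47H against TREM2-KO, an unadjusted p below 0.05 was seen for 6 that were higher (9.13% of all genes) and 2 that were lower (4.72%). In SORL1-A528T against SORL1-KO it was seen for 1 that was higher (2.39% of all genes) and 3 that were lower (3.64%). In each comparison with WT it was 2 or fewer per direction (0.759% to 4.98% of all genes). Starts of 29 of the 56 effectors with a listed start (51.8%) were called in all 21 libraries, against 46.7% of all protein-coding genes.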

How the data were processed

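ATAC-seq peak lists from 21 libraries were used. The submitters' processing notes list HOMER 4.10, STAR 2.7, cutadapt 1.18 and DESeq2, without their roles. Peaks were called by HOMER, per the file headers, library by library with no control library. The fragment length recorded there was 74 bp in 14 libraries and 136 to 494 bp in 7, all of replicate 2. The score column, as deposited, is 1 for every peak. Tags per library come from the file headers and limit precision: shallow libraries call fewer regions. No source used here gives the genome build or any shift for the transposase cut. RefSeq tables of GRCh38.p14 were used: 46.0% of their 15811 listed starts fell within regions found in every library, and 2.25% and 2.30% did after a 10 kb shift to either side.

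Peaks sharing at least 1 bp were merged, and regions were assigned to the nearest protein-coding gene span within 100 kb (78.7% of regions). Depth-adjusted calls per gene (at least 5 regions) were tested with limma 3.58.1 in R 4.3.3, all 21 libraries sharing 1 estimate of spread, with Benjamini-Hochberg adjustment per comparison; the script was tested on simulated data. Members, lists and tests were chosen with earlier results of these data known. Members named with values per library were those with the highest and the lowest difference in each comparison and those with all-or-none regions; others named so were chosen after their values were seen, as stated. Same-numbered libraries deviated together in all 3 pairs (r above 0.1) in 1 of the 8 comparisons, TREM2-R47H against TREM2-KO, where the block value is given; over all pairs of lines 47 of 63 same-numbered pairs were above 0.1, and 18 of 21 libraries correlated best with their own number; the pairing comes from these correlations, not from the labels. Alternatives were a cover of 50%, regions in at least 2 libraries, equal list lengths, at least 10 regions per gene, a distance of 10 kb, raw call shares, a replicate block, added NTNG1, NTNG2 and UNC5CL, and leaving out libraries.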

Additional observations from a re-analysis of the deposited data

How the results depend on the processing

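No member passed the threshold in any comparison under the alternatives other than 2, both in TREM2-R47H against TREM2-KO: 1 member passed with the replicate block (SEMA3C), and 2 passed without TREM2-KO replicate 1. Over all replicates left out, that count ran from 0 to 2, and the 2 came from that library. The block changed no other call of a member at the adjusted threshold. Counts at an unadjusted p below 0.05 come from fits without the block and differ with it. In TREM2-R47H against WT, SEMA3G, SEMA4A, SEMA6B and UNC5B (higher) and SEMA3C (lower) were then below 0.05. Their adjusted p ran from 0.228 to 0.304 (limma). In TREM2-KO against WT, EPHA5 (higher) and EPHA2 and NTN1 (lower) were below 0.05 (adjusted p = 0.828 each by limma). Newly below it in TREM2-R47H against TREM2-KO were EPHA2, EPHB2 and PLXNA2 (higher) and DCC and ROBO2 (lower). SORL1-KO against WT added SEMA3G and UNC5B (higher), and CD33 SNP against WT added EPHA2 (lower). For these fits no share of all genes below 0.05 is given. Of the differences of named members, 242 kept their direction and side of the threshold and 3 became stronger. Leaving out 1 library also moved the following by over 1.5 times, none of them past the threshold: SEMA3G against WT to 0.272 in TREM2-R47H without its replicate 1 and to 0.218 in SORL1-KO without its replicate 3, NTN4 to -0.110 in SORL1-KO without its replicate 2 and to -0.113 in INPP5D SNP without WT replicate 3, PLXNC1 to 0.101 in CD33 SNP without its replicate 1, EFNA3 to -0.244 and -0.104 in CD33 SNP without its replicates 1 and 2, and EPHB1 in SORL1-A528T against SORL1-KO to -0.101 without SORL1-KO replicate 2. SEMA3G also moved the other way: over all replicates left out, its difference from WT rose as far as 0.656 in TREM2-R47H and 0.530 in SORL1-KO. Where values moved, the cause was not tested. The median member difference was small and moved easily. With peaks covering at least 50% of a region it was 0.0207 in TREM2-R47H, -0.000248 in TREM2-KO and 0.00308 in SORL1-A528T against WT, and -0.0167 in SORL1-A528T against SORL1-KO. As raw call shares it was 0, 0, -0.101, -0.0173, 0.0280 and -0.0299 in TREM2-R47H, TREM2-KO, SORL1-A528T, SORL1-KO, CD33 SNP and INPP5D SNP against WT, and -0.0690 in SORL1-A528T against SORL1-KO. With at least 10 regions per gene it was 0.0278 in TREM2-KO and -0.0171 in SORL1-A528T against WT. With lists of equal length it was -0.00384 in SORL1-A528T and -0.0103 in SORL1-KO against WT, and -0.0267 in TREM2-R47H against TREM2-KO. Within 10 kb it was -0.00192 in SORL1-A528T, 0.0220 in SORL1-KO and 0.0164 in CD33 SNP against WT, and -0.0127 in SORL1-A528T against SORL1-KO. With NTNG1, NTNG2 and UNC5CL added it was 0.0168 in SORL1-A528T against WT. Leaving out replicates gave medians against WT of -0.000102 to 0.0249 in TREM2-R47H, -0.00275 to 0.0161 in TREM2-KO, 0.00141 to 0.0136 in SORL1-A528T, -0.000182 to 0.0159 in SORL1-KO, -0.0204 to 0.00604 in CD33 SNP and -0.0110 to 0.0237 in INPP5D SNP. It gave 0.00678 to 0.0240 in TREM2-R47H against TREM2-KO and -0.0176 to 0.00561 in SORL1-A528T against SORL1-KO.

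All-or-none counts moved in both directions. With a cover of 50%, TREM2-R47H gained 1 region, SORL1-A528T lost 2, and SORL1-KO gained 3 and lost 5. For that cover, and for replicates left out, no share of all regions is given. Those member counts therefore cannot be set against a background. With lists of equal length, TREM2-R47H lost 7 (0.811% of all regions), TREM2-KO gained 2 (0.152%), SORL1-A528T lost 2 (0.544%), CD33 SNP gained 0 (0.149%) and lost 3 (0.0862%), and INPP5D SNP gained 0 (0.159%). Leaving out replicates gave 2 to 26 gained and 4 to 32 lost in TREM2-R47H, 1 to 19 and 0 to 17 in TREM2-KO, 0 to 2 and 5 to 60 in SORL1-A528T, 1 to 7 and 4 to 31 in SORL1-KO, 1 to 23 and 0 to 8 in CD33 SNP, and 1 to 7 and 0 to 28 in INPP5D SNP; a line then needs only 2 calls or 2 absences.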
